A study of Mus musculus with 12 samples.

Results

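The EGF family ligands and ERBB receptors were followed in whole hearts of adult male C57BL/6N mice, as 6 ligand genes (*Ereg*, *Areg*, *Hbegf*, *Tgfa*, *Btc*, *Nrg1*) and the 4 receptor genes (*Egfr*, *Erbb2*, *Erbb3*, *Erbb4*) among 53801 genes. The members were taken by symbol, and all 10 were found in the table of raw counts and in the table of TPM, RSEM's length-adjusted transcript abundance. *Ereg* had been picked because its increase on day 1 was one of the largest in these hearts, so its values are given as a description without a test. The groups were sham surgery, day 1 after acute myocardial infarction (day 1 AMI) and day 7 after it (day 7 AMI), with 4 hearts per group and 1 library per heart. AMI was made by permanent ligation of the left coronary artery under isoflurane. No gene was deleted and no drug was given in these groups. The labels do not say on which day after surgery the sham hearts were taken, so the time since surgery cannot be told apart from the ligation in any comparison with sham. A whole heart holds infarct, border and remote muscle together.

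ERBB receptors are receptor tyrosine kinases that pair up when a ligand binds. EGFR binds epiregulin (*Ereg*), amphiregulin (*Areg*), TGF-α (*Tgfa*), HB-EGF (*Hbegf*) and betacellulin (*Btc*), ERBB4 also binds HB-EGF, betacellulin and neuregulins, and ERBB3 binds neuregulins. ERBB2 has no ligand of its own and serves as a partner, and ERBB3 has little kinase activity and signals through its partners, mainly to PI3K and AKT. The ligands are made as membrane precursors that metalloproteases such as ADAM17 cut free. In the heart, neuregulin-1 (*Nrg1*) from endothelial cells acts on ERBB4 and ERBB2 of cardiomyocytes and is known for its part in trabeculation and in the survival of adult muscle.

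On GRCm38, 3 of the ligand genes stand close together on chromosome 5, *Ereg* at 91074622 to 91093646 (+), *Areg* at 91139599 to 91148432 (+) and *Btc* at 91357261 to 91402994 (-). The gap between *Ereg* and *Areg* is 46.0 kb, and that between *Areg* and *Btc* is 208.8 kb. *Egfr* (16752203 to 16918158) and *Erbb2* (98412470 to 98437716) both lie on chromosome 11 on the + strand. *Erbb3* lies on chromosome 10 (128567523 to 128589652, -), *Erbb4* on chromosome 1 (68032186 to 69108059, -), *Tgfa* on chromosome 6 (86195223 to 86275719, +) and *Nrg1* on chromosome 8 (31814551 to 32884029, -). Exons of other genes covered at most 4.66% of the exon bases of any member, the highest share being that of *Nrg1*.

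RefSeq promoters (GRCm38.p6) were at hand for 6 of the 10 members, and 4 are printed, 5′ to 3′ on the strand of the gene, from 250 to 21 bases before its start: *Areg*, the neighbour of *Ereg*, and the receptors *Egfr*, *Erbb2* and *Erbb4*, on whose levels the results turn. Capitals mark the letters of a cAMP response element (CRE, TGACGTCA) or of a GC box (GGGCGG, or CCGCCC on the other strand). The AP-1 motif (TGANTCA) was also searched on both strands. No match of 1 motif overlapped a match of another. The CRE was added to the search after the sequences had been read.
Areg, chr5:91139349-91139578 (+): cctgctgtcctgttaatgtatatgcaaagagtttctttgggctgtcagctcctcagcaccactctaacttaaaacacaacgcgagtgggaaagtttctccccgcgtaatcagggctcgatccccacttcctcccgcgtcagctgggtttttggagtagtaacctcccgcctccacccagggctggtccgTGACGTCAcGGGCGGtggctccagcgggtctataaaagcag
Egfr, chr11:16751953-16752182 (+): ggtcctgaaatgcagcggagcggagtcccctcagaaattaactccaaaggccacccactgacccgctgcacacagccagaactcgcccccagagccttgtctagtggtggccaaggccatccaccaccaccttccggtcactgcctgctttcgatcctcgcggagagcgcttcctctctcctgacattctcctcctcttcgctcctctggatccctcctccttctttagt
Erbb2, chr11:98412234-98412463 (+): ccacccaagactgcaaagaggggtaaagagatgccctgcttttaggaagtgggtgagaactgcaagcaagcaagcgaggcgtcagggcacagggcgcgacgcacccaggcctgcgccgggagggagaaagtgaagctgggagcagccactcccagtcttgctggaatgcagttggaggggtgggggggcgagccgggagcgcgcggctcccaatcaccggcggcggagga
Erbb4, chr1:69108080-69108309 (-): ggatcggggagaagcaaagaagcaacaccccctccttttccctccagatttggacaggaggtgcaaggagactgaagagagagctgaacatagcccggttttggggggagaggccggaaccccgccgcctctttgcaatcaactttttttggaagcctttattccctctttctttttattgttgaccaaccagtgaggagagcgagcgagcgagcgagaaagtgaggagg
The *Areg* window held 1 CRE and 1 GC box, and the windows of the 3 receptors held none of the 3 motifs. Among 32851 promoters of the same length, 1.28% held the CRE, 29.8% the GC box and 6.34% the AP-1 motif. These matches describe letters only.

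The libraries held 23204551 to 32166517 counts. Counts are given below as TMM-normalized CPM, counts scaled to the corrected size of each library, and levels of different genes are compared by TPM, which allows for transcript length. The TMM factors, by which edgeR corrects a library's total, were lower for the sham libraries (0.781 to 0.917) than for the day 1 (1.01 to 1.06) and day 7 libraries (1.10 to 1.17). With the totals alone, the median log2 fold change (FC) of all genes was 0.26 on day 1 and 0.43 on day 7 against sham, so that the choice of scaling bears on small changes of the receptors, as given beside them. Changes were tested with edgeR's quasi-likelihood test in 1 fit of the 12 libraries, with the Benjamini-Hochberg false discovery rate (FDR) over 15306 genes, and a gene rose or fell when its FDR was below 0.05. DEGs also had a FC of 2 or greater. The labels do not describe how the samples were replicated beyond their number, so the p-values measure the spread between these libraries.

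The labelled tissue carried its defining markers, since *Myh6* ran from 6696 to 13010.5 TPM over the 12 hearts. The summed TPM of 10 cardiomyocyte markers fell from 73123 to 83996 in sham hearts to 59936 to 67963 on day 1 and 53645 to 61845 on day 7, with 9 of the 10 genes past the test on either day. On day 7 the 10 fibroblast markers summed to 3285 to 5472 TPM (sham 1008 to 1283), the 10 endothelial markers to 604 to 666 (sham 302 to 390) and the 10 monocyte and macrophage markers to 1202 to 1956 (sham 283 to 540). By the edgeR test on day 7, 9 fibroblast markers rose and 1 fell, and 10 monocyte and macrophage markers rose. Of the endothelial markers 6 rose and 2 fell on day 7, and 1 rose and 5 fell on day 1. The sums are in TPM, which carries the shift of the scaling named above. The 10 neutrophil markers reached 123 to 508 TPM on day 1, against 4.52 to 239 in sham hearts. The 10 Schwann cell markers, a cell type known for *Erbb3*, summed to 13.5 to 16.7 TPM in sham hearts, 23.3 to 27.0 on day 1 and 29.8 to 35.8 on day 7. Sham replicate 2 stood apart in its erythroid markers, with a sum of 15285 TPM where no other heart passed 4969. The 10 lung epithelium markers summed to 0.67 to 0.92 TPM in sham hearts, 3.31 to 7.18 on day 1 and 3.13 to 20.25 on day 7, with *Sftpc* at 0 in all sham and day 1 hearts and at up to 14.18 TPM on day 7. Few of these genes carried the sums, since 2 of the 10 exceeded 3 counts in any sham heart, 3 on day 1 and 9 on day 7. The 20.25 TPM was that of day 7 replicate 3, and the other day 7 hearts had 3.13 to 10.4. Fewer cells of a type and less RNA per cell cannot be told apart in whole hearts, and the part of cell makeup in the results below was not tested.

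By TPM, *Hbegf* had the highest level of the 6 ligand genes in all 12 hearts. Outside these 6, *Egf* (3.79 to 6.25 TPM in sham hearts, 1.89 to 4.04 after AMI) and *Nrg4* (1.08 to 1.94 in sham hearts, 1.05 to 2.67 after AMI) lay below *Hbegf* and, in sham hearts, above the other 5. Its median was 8.605 TPM in sham hearts, where *Btc* (0.53 to 1.01 TPM), *Nrg1* (0.19 to 0.81) and *Tgfa* (0.18 to 0.57) followed with ranges that overlapped and *Ereg* and *Areg* did not pass 0.01. On day 1 the median of *Hbegf* was 62.95 TPM, and *Btc* (0.65 to 0.97), *Tgfa* (0.25 to 0.98), *Ereg* (0.23 to 1.53) and *Nrg1* (0.17 to 0.57) came after it in that order of medians, each overlapping its neighbour. On day 7 *Hbegf* had a median of 18.77 TPM and was followed by *Nrg1* (0.84 to 3.92), *Btc* (0.80 to 1.17), *Ereg* (0.47 to 0.96), *Tgfa* (0.57 to 0.74) and *Areg* (0.05 to 0.13). Of these neighbours, *Tgfa* and *Areg* did not overlap. *Hbegf* alone made up 83.6% ± 3.16 (SD, n = 4) of the summed TPM of the 6 ligands in sham hearts, 95.3% ± 1.07 on day 1 and 82.0% ± 4.07 on day 7.

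**Figure D1:**
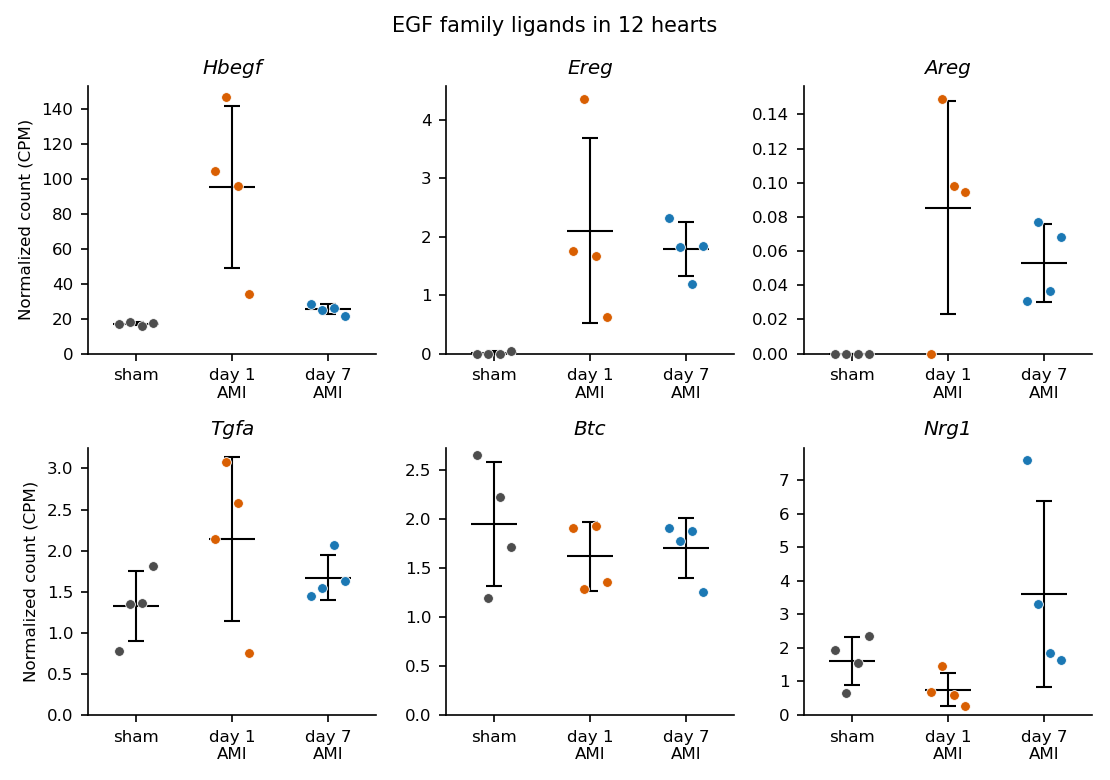
TMM-normalized counts (CPM, linear axes from 0) of the 6 ligand genes, with 1 point per heart and a bar at the mean ± SD of 4 hearts per group. *Hbegf* lay between 34.1 and 147 CPM on day 1 and between 15.9 and 17.8 in sham hearts, *Nrg1* reached 7.61 CPM in 1 day 7 heart, and *Areg* stayed under 0.15 CPM.

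*Hbegf*, which encodes a ligand of EGFR and ERBB4, was the member that rose most among those tested. On GRCm38 the gene lies on chromosome 18 from 36504927 to 36515805 (-). Its raw counts were 326, 433, 327 and 365 in the sham hearts, 2729, 4920, 2933 and 1081 on day 1, and 927, 643, 708 and 637 on day 7. Every day 1 heart lay above every heart of the other groups. Normalized, these were 17.0 ± 0.840 CPM (SD, n = 4), 95.3 ± 46.5 CPM and 25.3 ± 2.87 CPM. On day 1 *Hbegf* was 5.59-fold higher than in sham hearts (log2 FC 2.48, SE 0.305, edgeR FDR 5.59e-05). From day 1 to day 7 it fell by 1.91 on the log2 scale (SE 0.295, edgeR FDR 0.000144). The day 7 hearts, at 21.7 to 28.6 CPM, lay above all sham hearts, but the log2 FC of 0.57 (SE 0.297) did not pass the edgeR test in the fit of 3 groups (FDR 0.113). It passed when only these groups were fitted (0.56, FDR 0.000568) and when day 1 replicate 4 was left out (0.57, FDR 0.00198). With library totals alone it also passed (0.97, FDR 0.0103). By limma it passed on log2(TPM + 1) (1.04, FDR 0.00821) and on log2(TPM + 0.1) (1.11, FDR 0.00602).

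*Ereg* encodes epiregulin, a ligand of EGFR and ERBB4. It had 0, 0, 0 and 1 counts in the sham hearts, 46, 146, 51 and 20 on day 1, and 75, 47, 32 and 54 on day 7. Hearts after AMI and sham hearts did not overlap. The mean was 2.10 ± 1.59 CPM (SD, n = 4) on day 1 and 1.79 ± 0.464 CPM on day 7. Against a floor of 3 counts per sham library, 0.142 CPM on average, *Ereg* was at least 14.8-fold higher on day 1 and at least 12.6-fold higher on day 7, and the lowest heart of each group was at least 4.44-fold and 8.30-fold higher. These values include the increase by which *Ereg* was chosen. Between day 7 and day 1 its log2 FC was -0.24 with an SE of 0.435, and the hearts of those groups overlapped. By TPM, *Ereg* on day 1 (0.60, 1.53, 0.57 and 0.23) stood far under *Hbegf* (65.76, 94.39, 60.14 and 22.77) in the same hearts.

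*Areg*, the neighbouring gene for amphiregulin, did not pass the filter on low counts. It had no count in any sham heart, 0, 5, 3 and 3 counts on day 1, and 1, 2, 1 and 2 on day 7. Only 1 library exceeded the floor of 3 counts, so no fold is given. The 4 day 7 hearts all had a count and the sham hearts none (exact permutation p = 0.0286 on log2 CPM, adjusted p = 0.0771), and on day 1 *Areg* passed when no filter on low counts was set (FDR 0.0415). In the sham libraries a count of 0 allows up to 0.123 to 0.156 CPM. *Btc*, the last gene of that stretch of chromosome 5, had 1.95 ± 0.636 CPM (SD, n = 4) in sham hearts, 1.62 ± 0.349 on day 1 and 1.71 ± 0.304 on day 7. The groups overlapped in all 3 comparisons, and no edgeR FDR was under 0.442. The 95% interval of its log2 FC ran from -0.82 to 0.30 on day 1 and from -0.74 to 0.38 on day 7 against sham, and with library totals alone both values were above 0 (0.02 and 0.22).

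*Tgfa*, which encodes the EGFR ligand TGF-α, had 15, 33, 28 and 38 counts in sham hearts, 56, 103, 79 and 24 on day 1, and 47, 40, 56 and 48 on day 7. In CPM, 3 of the 4 day 1 hearts (2.14, 3.07 and 2.58) lay above the highest sham heart (1.82) and replicate 4 (0.757) lay below the lowest (0.782). The log2 FC of day 1 against sham was 0.68 (SE 0.358, edgeR FDR 0.141). Without day 1 replicate 4 it was 0.97 with an FDR of 0.00941, and with library totals alone it was 0.94 with an FDR of 0.0446. On day 7 the log2 FC against sham was 0.33 (edgeR FDR 0.459).

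*Nrg1*, the neuregulin that binds ERBB3 and ERBB4, had 37, 16, 32 and 49 counts in sham hearts, 18, 49, 18 and 9 on day 1, and 247, 86, 50 and 48 on day 7. On day 1 replicates 3 and 4 (0.589 and 0.284 CPM) lay below the lowest sham heart (0.657), and every day 7 heart (1.63 to 7.61 CPM) lay above every day 1 heart (0.284 to 1.46 CPM). From day 1 to day 7 it rose 4.73-fold (log2 FC 2.24, SE 0.551, edgeR FDR 0.00424), which became 1.56 with an FDR of 0.0187 without day 7 replicate 1, the heart with the most *Nrg1*. Against sham, the log2 FC was -1.07 on day 1 (SE 0.579, edgeR FDR 0.153) and 1.17 on day 7 (SE 0.528, edgeR FDR 0.0701), and neither passed. The call on day 7 depended on the analysis. It passed by DESeq2 (1.13, FDR 0.0485), without the filter on low counts (FDR 0.0424), with library totals alone (1.58, FDR 0.0158), by limma on log2(TPM + 1) and log2(TPM + 0.1) (FDR 0.0160 and 0.0142), and without day 7 replicate 3 (FDR 0.0413) or 4 (FDR 0.0352). Without day 7 replicate 1 it was 0.49 (FDR 0.399). Day 7 replicate 1 was also the heart with the highest sum of fibroblast markers (5472 TPM, against 3285 to 3983 in the other 3). It had the highest sum of monocyte and macrophage markers as well (1956 TPM, against 1202 to 1858). Replicate 4, the next in either sum, had the least *Nrg1* of that group (1.63 CPM). The part of these cells in the *Nrg1* value was not tested.

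The day 1 hearts stood in a like order over several members in CPM. Replicate 2 was the highest and replicate 4 the lowest of the 4 in *Ereg*, *Hbegf*, *Tgfa*, *Nrg1*, *Erbb2* and *Erbb3*. The highest heart held 6.91 times the *Ereg*, 4.31 times the *Hbegf* and 4.06 times the *Tgfa* of the lowest. *Erbb4* had the reverse order, with replicate 4 the highest (9.90 CPM) and replicate 2 the lowest (5.70 CPM). Replicate 2 was the lowest in *Btc* as well. In *Egfr* and *Areg* it was the highest, but the lowest were replicate 3 and replicate 1. Replicate 2 also had the highest sums of neutrophil (508 TPM) and macrophage markers (990 TPM) of that group. Replicate 4 was not the lowest in these, with 220 and 895 TPM. It had the lowest sum of the 10 atrial markers (1264 TPM, against 2342 to 2981). That sum cannot be read as an amount of atrial tissue. On day 7 it was 3498 to 4857 TPM (sham 209 to 1618), though the median log2 FC of its genes against sham was -0.42. Whether the day 1 hearts differed in infarct size was not tested.

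Summed over *Areg*, *Hbegf*, *Tgfa*, *Btc* and *Nrg1*, the level was 10.5 ± 0.577 TPM (SD, n = 4) in sham hearts, 62.8 ± 29.9 on day 1 and 22.7 ± 3.42 on day 7. On the log2 scale the day 1 sum was 2.42 higher than sham, or 5.37-fold (exact two-sided permutation p = 0.0286, adjusted p = 0.0429 over 3 comparisons). The day 7 sum was 2.15-fold higher than sham with the same exact p and adjusted p, 0.0286 being the lower limit of this test. The difference of the sums between day 7 and day 1 was -1.32 on the log2 scale (adjusted exact p = 0.0571). In CPM the same sums were 4.05-fold higher than sham on day 1 and 1.46-fold higher on day 7. With *Egf*, *Epgn*, *Nrg2*, *Nrg3* and *Nrg4* added, a sum chosen after the data were seen, the level was 18.2 ± 1.87 TPM in sham hearts, 67.7 ± 29.3 on day 1 and 28.0 ± 3.61 on day 7, or 3.41-fold and 1.54-fold higher than sham (adjusted exact p = 0.0429 for either). *Hbegf* made up most of the 5-gene sums, and TPM carries the shift of the scaling named above.

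Of the receptors, *Egfr* rose by day 7. *Erbb3* and *Erbb4* fell by then with TMM or RLE scaling and by DESeq2, but not with library totals alone or by limma on TPM. In sham hearts *Erbb2* (median 3.865 TPM, 2.91 to 4.37) and *Erbb3* (median 3.815, 2.78 to 4.47) had overlapping levels, as had *Egfr* (median 1.285, 0.90 to 2.39) and *Erbb4* (median 1.085, 0.99 to 1.42). On day 1 the order was *Erbb2* (5.595), *Erbb3* (3.985), *Egfr* (2.665) and *Erbb4* (1.105 TPM), and no neighbours overlapped. On day 7 *Egfr*, at a median of 4.055 TPM (2.76 to 4.73), overlapped *Erbb3* (3.56 to 3.72), while *Erbb2* (5.87 to 6.77) and *Erbb4* (0.78 to 1.30) stood clear at either end.

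**Figure D2:**
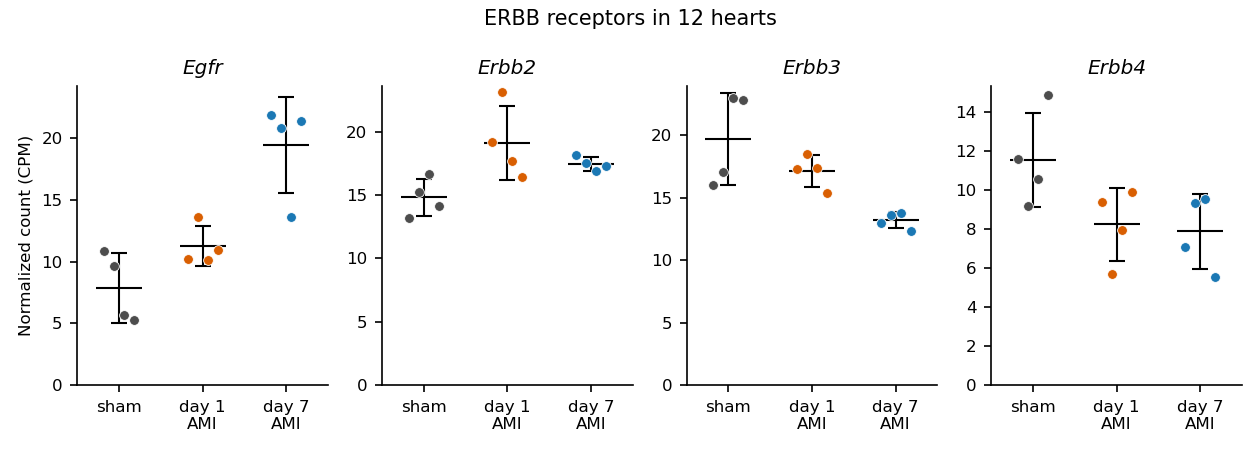
TMM-normalized counts (CPM, linear axes from 0) of the 4 receptor genes, with 1 point per heart and a bar at the mean ± SD of 4 hearts per group. *Egfr* was at 13.7 to 21.9 CPM on day 7 and 5.26 to 10.9 in sham hearts, and *Erbb3* at 12.4 to 13.8 and 16.1 to 22.99. The lower *Erbb3* and *Erbb4* on day 7 passed with TMM and RLE scaling and by DESeq2, but not with library totals alone.

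*Egfr* encodes the receptor of EGF, TGF-α, amphiregulin and epiregulin. It had 10.9, 9.65, 5.68 and 5.26 CPM in sham hearts, 10.2, 13.6, 10.2 and 11.0 on day 1, and 21.9, 20.8, 13.7 and 21.4 on day 7. The lowest day 7 heart was just above the highest day 1 heart. *Egfr* rose 2.47-fold from sham to day 7 (log2 FC 1.31, SE 0.221, edgeR FDR 0.000155) and 1.73-fold from day 1 to day 7 (0.79, SE 0.213, edgeR FDR 0.00763). The second change did not pass by limma on log2(TPM + 1) (0.41, FDR 0.103) or log2(TPM + 0.1) (0.53, FDR 0.143). On day 1 the log2 FC against sham was 0.52 (SE 0.222, edgeR FDR 0.0747). By limma on log2(TPM + 1) and log2(TPM + 0.1) it passed (FDR 0.0247 and 0.0201), as without the filter on low counts (FDR 0.0491). It passed with library totals alone (0.80, FDR 0.00941), and without sham replicate 1 (0.71, FDR 0.0239) or sham replicate 2 (0.64, FDR 0.0478), the sham hearts with the most *Egfr*.

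*Erbb2*, the partner receptor that binds no ligand, had 13.2, 15.2, 16.6 and 14.2 CPM in sham hearts, 19.2, 23.1, 17.7 and 16.4 on day 1, and 18.2, 17.5, 16.9 and 17.3 on day 7. Only day 1 replicate 4 fell within the range of the sham hearts. *Erbb2* rose 1.29-fold on day 1 (log2 FC 0.37, SE 0.109, edgeR FDR 0.0152). This did not pass without day 1 replicate 2 (0.26, FDR 0.0540). On day 7 all hearts lay above all sham hearts, yet the log2 FC of 0.24 (SE 0.109) did not pass (edgeR FDR 0.0741). With library totals alone it was 0.63 (FDR 0.000590). That is 0.21 above the median of all genes under the same scaling. By limma on log2(TPM + 1) and log2(TPM + 0.1) the day 7 change also passed (FDR 0.000480 and 0.000494). Its log2 FCs there were 0.63 and 0.74, where the medians of all genes were 0.44 and 0.57.

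*Erbb3*, the receptor for neuregulins with little kinase activity, had 16.1, 17.1, 22.99 and 22.8 CPM in sham hearts, 17.3, 18.5, 17.4 and 15.4 on day 1, and 13.0, 13.6, 13.8 and 12.4 on day 7. All day 7 hearts lay below all others. *Erbb3* fell by 0.58 on the log2 scale from sham to day 7 (SE 0.120, edgeR FDR 0.000776) and fell by 0.38 from day 1 to day 7 (SE 0.119, edgeR FDR 0.0174), which did not pass without day 7 replicate 4 (FDR 0.0502), with library totals alone (-0.25, FDR 0.126) or by limma on log2(TPM + 1) (FDR 0.461) and log2(TPM + 0.1) (FDR 0.478). The fall against sham was a fall relative to the bulk of genes. It passed also with RLE size factors (-0.60, FDR 0.000574) and by DESeq2 (-0.60, FDR 1.45e-05). With library totals alone the log2 FC was -0.19 (FDR 0.218), which is -0.61 from the median of all genes, and by limma on log2(TPM + 1) it was -0.01 (FDR 0.948).

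*Erbb4*, the neuregulin receptor of cardiomyocytes, had 11.6, 9.20, 10.6 and 14.9 CPM in sham hearts, 9.41, 5.70, 7.95 and 9.90 on day 1, and 7.09, 9.35, 9.56 and 5.54 on day 7. The groups overlapped in each comparison. The log2 FC against sham was -0.49 on day 1 (SE 0.208, edgeR FDR 0.0735), and *Erbb4* fell by 0.55 on day 7 (SE 0.209, edgeR FDR 0.0340). The day 7 fall did not pass without sham replicate 1 (FDR 0.0581), sham replicate 4 (0.117), day 7 replicate 1 (0.0801) or day 7 replicate 4 (0.104), nor with library totals alone (-0.15, FDR 0.517, or -0.58 from the median of all genes). It passed with RLE size factors (-0.58, FDR 0.0276) and by DESeq2 (-0.58, FDR 0.0144). In the same hearts the cardiomyocyte markers fell by a median of 1.09 on the log2 scale on day 7. Their part in the values of *Erbb3* and *Erbb4* was not tested.

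**Figure D3:**
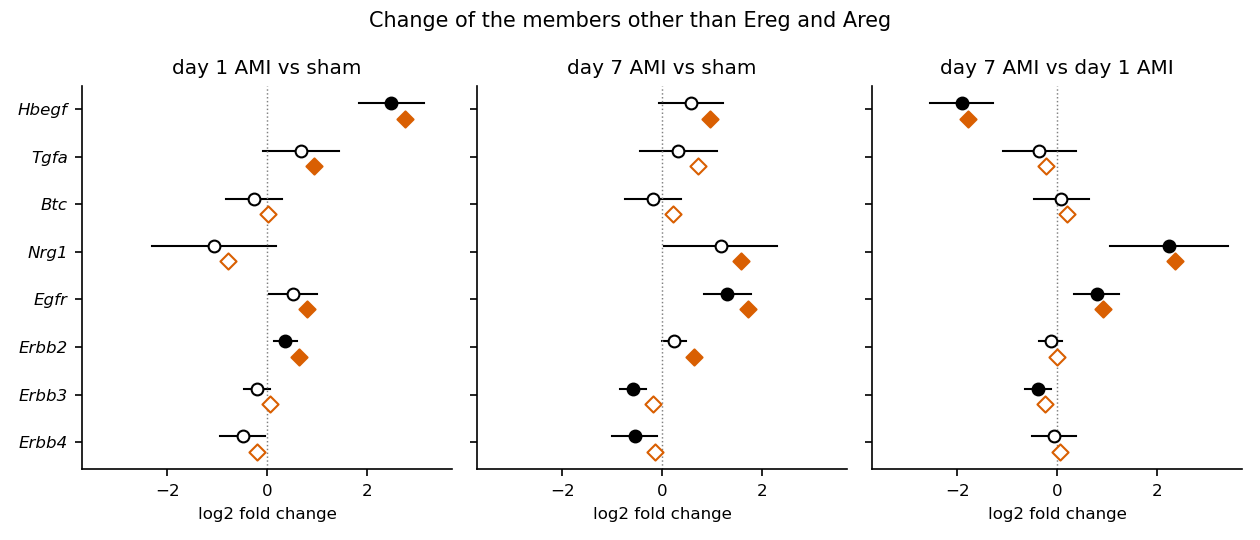
Log2 FCs of the 8 members tested, leaving out *Ereg* (chosen by its increase) and *Areg* (too few counts). Circles are the edgeR fit with TMM scaling and its 95% interval, diamonds the same test with library totals alone, and filled symbols have an FDR below 0.05. *Hbegf* at 2.48 on day 1 and *Egfr* at 1.31 on day 7 were filled under both scalings, while *Erbb3* and *Erbb4* on day 7 had filled circles and open diamonds.

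Counted over the 9 members other than *Ereg*, 8 of them past the filter, day 1 AMI against sham gave 2 that rose (*Hbegf* and *Erbb2*) and 0 that fell by edgeR. Over all 15306 genes tested, 22% rose, 19.9% fell and 10.8% were DEGs, and *Hbegf* was the DEG among the members. At an unadjusted p under 0.05, 1 member lay below sham in that comparison (*Erbb4*), and DESeq2 likewise gave 0 that fell. Without sham replicate 2, *Egfr* also rose and *Erbb4* also fell, which made 4 members, and without day 1 replicate 2 the count was 1 (*Hbegf*). On day 7 against sham, *Egfr* rose and *Erbb3* and *Erbb4* fell, against 30.9% of all genes that rose and 28.4% that fell, and *Egfr* was a DEG, as were 21.2% of all genes. From day 1 to day 7, *Nrg1* and *Egfr* rose and *Hbegf* and *Erbb3* fell, where 24.2% of all genes rose and 22.8% fell. *Hbegf* and *Nrg1* were DEGs in this comparison, against 11.2% of all genes. In percent of the 9 members, 22.2% rose on day 1, 11.1% rose and 22.2% fell on day 7 against sham, and 22.2% moved either way between the days, so that the counts by themselves do not set the members apart from other genes. The comparisons share hearts and are not independent of each other.

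Exact two-sided permutation tests on log2 CPM of single members can give no p under 0.0286 with 4 hearts against 4, and over the 27 tests no adjusted p was under 0.0771. Groups did not overlap for *Hbegf* in all 3 comparisons, for *Egfr* and *Erbb3* in both comparisons with day 7, for *Erbb2* and *Areg* in day 7 against sham and for *Nrg1* in day 7 against day 1. The share of all genes whose groups did not overlap is not given here, so this does not set the members apart from other genes.

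Within the receptor family the balance of mRNA can be read from shares of the summed TPM, which do not depend on the scaling of a library. *Egfr* made up 15.0% ± 8.03 (SD, n = 4) in sham hearts, 19.6% ± 3.82 on day 1 and 25.9% ± 4.14 on day 7. *Erbb3* made up 36.6% ± 4.83, 29.9% ± 3.33 and 24.4% ± 1.797. The share of *Erbb2* was 37.1% ± 3.59 in sham hearts, 42.4% ± 2.95 on day 1 and 42.1% ± 2.17 on day 7, and that of *Erbb4* was 11.3% ± 1.17, 8.11% ± 2.25 and 7.58% ± 1.72. On day 7 the *Erbb3* share differed from sham by -12.2 percentage points and the *Erbb4* share by -3.74 points, with hearts that did not overlap (exact permutation p = 0.0286 for either). On day 1 the *Erbb4* share already differed from sham by -3.20 points without overlap (exact permutation p = 0.0286). Over the 12 tests of shares no adjusted p was under 0.0762, so none passed. In TPM the mean of *Erbb3* was 3.72 in sham hearts and 3.64 on day 7, and that of *Erbb4* 1.145 and 1.13. The means of *Egfr* (1.465 and 3.90) and *Erbb2* (3.75 and 6.29) were higher on day 7. The summed TPM of the 4 receptors was 10.1 ± 0.835 in sham hearts, 13.6 ± 1.41 on day 1 and 15.0 ± 0.986 on day 7. In CPM the same sums were 54.0 ± 2.96, 55.7 ± 3.76 and 58.0 ± 3.40. Unlike the shares, a sum of TPM carries the shift of the scaling named above.

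**Figure D4:**
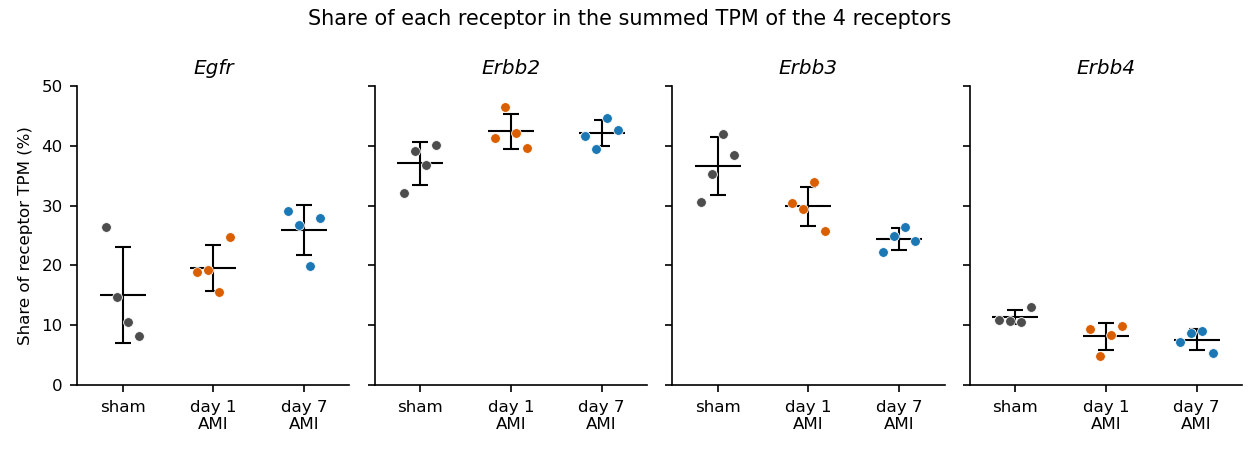
Share of each receptor in the summed TPM of the 4 receptors (percent), with 1 point per heart and a bar at the mean ± SD of 4 hearts. The *Erbb3* share went from a mean of 36.6% in sham hearts to 24.4% on day 7 and that of *Egfr* from 15.0% to 25.9%, and no share passed its adjusted exact test.

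Of the 5 other EGF family ligand genes, 3 passed the filter, and 2 of these fell and 0 rose against sham on either day, also by DESeq2 and at an unadjusted p under 0.05. *Egf*, whose product gave EGFR its name, had 12.6 ± 2.19 CPM (SD, n = 4) in sham hearts, 6.62 ± 2.29 on day 1 and 6.12 ± 2.00 on day 7. It fell by 0.92 on the log2 scale on day 1 (edgeR FDR 0.00862) and by 1.04 on day 7 (edgeR FDR 0.00242). *Nrg2*, a second neuregulin for ERBB3 and ERBB4, went from 1.75 ± 0.417 CPM in sham hearts to 0.366 ± 0.0515 on day 1 and 0.631 ± 0.149 on day 7. It fell by 2.23 (edgeR FDR 5.95e-05) and by 1.46 (edgeR FDR 0.000255), and rose by 0.77 between day 1 and day 7 (edgeR FDR 0.0419). This last call was lost by DESeq2 (FDR 0.0797), without the filter (0.113), with a replicate block (0.0822), by limma on either TPM scale (0.124 and 0.0542) and in 9 of the 12 fits that left out a heart (FDR up to 0.135). With library totals alone *Egf* and *Nrg2* still fell on either day, by 0.64 or more. *Nrg4* had log2 FCs of -0.26 and -0.30 against sham and did not pass. *Epgn* did not pass the filter, with at most 0.329 CPM, and *Nrg3* had no count in any heart.

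Of 10 ligand sheddases and their regulators, 9 were tested, and 5 rose and 0 fell on day 1 (22% and 19.9% of all genes). On day 7, 8 rose and 0 fell (30.9% and 28.4% of all genes). The median log2 FCs were 0.64 on day 1 and 0.74 on day 7 (all genes -0.01 and 0.03). The list also holds *Timp3*, an inhibitor of metalloproteases, so not all of its genes favour release of the ligands. *Adam17*, the sheddase named above, was not among those that rose on day 1 (log2 FC 0.13, edgeR FDR 0.306, or 0.40 and 0.00598 with library totals alone), and is named after its value was seen. *Adam8*, a metalloprotease of leukocytes, went from 0.821 ± 0.856 CPM in sham hearts to 25.9 ± 6.69 on day 1 (log2 FC 4.90) and 11.8 ± 6.82 on day 7 (3.77). *Adam12*, a metalloprotease known to cut HB-EGF, went from 0.781 ± 0.419 CPM to 18.01 ± 5.42 (4.53) and 27.6 ± 14.9 (5.15). Macrophage markers were above sham on either day and neutrophil markers had a higher range on day 1 but not on day 7 (14.3 to 177 TPM), and their part was not tested. With each heart left out, 5 or 6 rose on day 1 and 8 or 9 on day 7. DESeq2 and an unadjusted p under 0.05 also gave 0 that fell on either day.

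Among 10 genes that restrain the receptors, 2 rose and 0 fell on day 1 (all genes 22% and 19.9%), and 3 rose and 0 fell on day 7 (all genes 30.9% and 28.4%). The shares that rose, 20% and 30%, were near those of all genes. These were *Ptpn1*, a phosphatase (log2 FC 0.79 on day 1 and 0.76 on day 7), *Cbl*, a ubiquitin ligase for activated EGFR (0.38 on day 1 and 0.58 on day 7), and *Lrig3* (1.26 on day 7). With library totals alone 8 rose on day 1 and 9 on day 7, so this count depends on the scaling. Under that scaling 6289 of all 15306 genes rose on day 1 and 8237 on day 7. DESeq2 also gave 0 that fell.

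Of 16 adaptors and RAS-ERK kinases, 3 rose and 1 fell on day 1 (all genes 22% and 19.9%), and 4 rose and 7 fell on day 7 (all genes 30.9% and 28.4%). *Nras* (0.71) and *Shc1* (0.56), a GTPase and an adaptor that binds ERBB receptors, rose on day 1, and *Shc1* (0.74) and *Gab2* (0.69), a docking protein, on day 7. *Araf* fell by 0.36 on day 1, and *Map2k2* fell by 0.43 on day 7, both being kinases of the ERK cascade. With RLE size factors 1 fell on day 1 and 7 on day 7, and by DESeq2 3 and 7 fell. The falls were not found with library totals alone. There 8 rose and 0 fell on day 1 and 9 rose and 0 fell on day 7, with *Map2k2* at -0.03 on day 7. Of all 15306 genes, 6289 rose and 1061 fell on day 1 under that scaling, and 8237 and 1659 on day 7.

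In the list of 10 PI3K-AKT genes, 3 rose and 4 fell on day 1 (all genes 22% and 19.9%) and 2 rose and 2 fell on day 7 (all genes 30.9% and 28.4%). *Pik3cd*, the catalytic subunit typical of leukocytes, rose by 1.13 on day 1 and by 1.42 on day 7, and *Pik3cb* by 0.53 on day 1. *Pik3r1* and *Pik3r2*, regulatory subunits, fell by 0.57 and 0.31 on day 1, and *Pik3r1* and *Akt2* fell by 0.94 and 0.84 on day 7. With library totals alone 4 rose and 0 fell on day 1 and 8 rose and 2 fell on day 7, the 2 being *Pik3r1* (-0.54) and *Akt2* (-0.45). All genes under that scaling gave 6289 that rose and 1061 that fell on day 1, and 8237 and 1659 on day 7, of 15306.

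Of 10 genes known as outputs of ERK signaling, 6 rose and 1 fell on either day (all genes 22% and 19.9% on day 1, 30.9% and 28.4% on day 7). With library totals alone 8 rose on day 1 and 9 on day 7, where 6289 and 8237 of all 15306 genes rose. *Etv4*, an ETS transcription factor, went from 0.408 ± 0.190 CPM in sham hearts to 1.48 ± 0.575 on day 1 (log2 FC 1.84) and 4.52 ± 1.74 on day 7 (3.45). *Phlda1* rose by 0.98 on day 1 and *Ccnd1*, which encodes cyclin D1, by 1.18 on day 7. *Epha4*, an ephrin receptor, fell by 1.09 on day 1 and by 1.21 on day 7. The median log2 FCs were 0.57 and 0.55. With single hearts left out, between 3 and 7 of them rose on day 1 and between 4 and 7 on day 7, and these genes also answer to many other receptors.

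**Figure D5:**
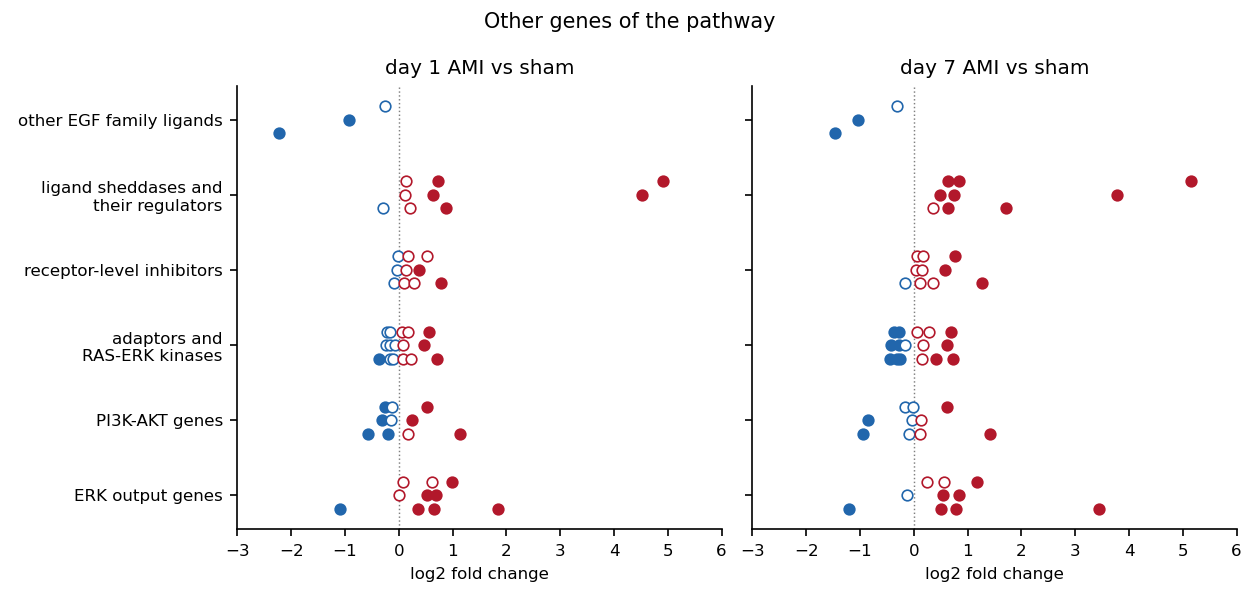
Log2 FC of every tested gene of 6 pathway lists on day 1 and day 7 against sham (1 point per gene, red above and blue below 0, filled at an edgeR FDR below 0.05, TMM scaling). *Adam8* and *Adam12* stand at the right at 3.77 to 5.15, and *Nrg2* at the left at -2.23 and -1.46, while the filled RAS-ERK genes below 0 on day 7 were not below 0 past the test with library totals alone.

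The genes whose log2 CPM was most like that of a member over the 12 hearts were searched among 13434 genes with a mean of at least 1 CPM. These correlations are descriptions. The 12 points share 3 groups, and a gene that follows the groups will score high. For *Ereg* these were *Dpysl3* (Pearson r = 0.989), *Pafah1b3* (0.985) and *Cytip* (0.982), and for *Hbegf* they were *Akap2* (0.989), *Fosl1* (0.979), a subunit of AP-1, and *Mak16* (0.978). *Egfr* was nearest to *Sptlc2* (0.983), *Slfn8* (0.979) and *Rbbp8* (0.979), and *Erbb2* to *Nfasc* (0.931), *Jund* (0.931) and *Gprc5a* (0.930). *Erbb3* was nearest to *Asb12* (0.952), *Reep6* (0.938) and *Sugp1* (0.935), and *Erbb4* to *Car8* (0.959), *Mlh3* (0.932) and *Gpr137c* (0.921). The ligands with few counts had looser neighbours. *Nrg1* was nearest to *9530068E07Rik* (0.901), *Zfp275* (0.886) and *Sp1* (0.884), *Tgfa* to *Mif* (0.869), *Gm16574* (0.862) and *Ints11* (0.859), and *Btc* to *Birc6* (0.829), *Zfp418* (0.825) and *Ubr1* (0.819).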

How the data were processed

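Total RNA of whole hearts (4 sham, 4 day 1 AMI, 4 day 7 AMI) was isolated with a miRNeasy kit and sequenced as paired-end reads. The authors trimmed the reads with Cutadapt and aligned them to Ensembl GRCm38 with STAR v2.4.0j, and the submitters' processing notes also name CASAVA 1.8. The authors deposited raw counts per gene, whole numbers without normalization, and TPM per gene from RSEM. The tool and strand behind the counts are not given in the sources used here, so reads of overlapping genes on opposite strands may be mixed.

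Libraries were grouped by their treatment labels. Counts were analyzed with edgeR 4.0.16 in R 4.3.3 (TMM normalization, filterByExpr by group, quasi-likelihood test on 3 groups, Benjamini-Hochberg FDR over 15306 genes, log2 CPM with a prior count of 2). Shares and sums of TPM, and single members, were compared by exact two-sided permutation tests. The floor was 3 counts per library and covers counting error only, as do limits from counts of 0. Alternatives were DESeq2 1.42.0, RLE size factors, library totals alone, no filter, only the groups compared, a replicate block, limma 3.58.1 on log2(TPM + 1) and log2(TPM + 0.1), and each heart left out. The code was tested on simulated data. Python 3.11.15 with matplotlib 3.10.9 drew the figures. Promoters came from RefSeq and gene positions from GENCODE.

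The members, the pathway and marker lists, and the rule for named genes were chosen with earlier results of these data known. Besides the members and the other EGF family ligands, the text names the 2 genes of each pathway list that rose most and the 2 that fell most against sham on either day, single marker genes, and the 3 genes most like each member. A few genes that this rule would name are not reported here.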

Additional observations from a re-analysis of the deposited data

Results flagged for a closer look

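Among the members, 42 sets of 4 hearts were examined for a heart far from the other 3, and 2 were found. Chance alone gives about 1 in 20. *Egfr* in day 7 AMI replicate 3 was 13.7 CPM, where the other 3 day 7 hearts had 20.8 to 21.9 CPM, and the gap was 0.868 of the range of the group. The share of *Erbb4* in the receptor TPM was 13.1% in sham replicate 4, with a gap of 0.846 of the range. Leaving out either heart did not end the *Egfr* rise on day 7, and the *Erbb4* fall on day 7 did not pass without that sham heart (FDR 0.117).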

How the results depend on the processing

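Of 480 recomputed log2 FCs of the tested members, 415 kept their direction and their side of the threshold, 18 no longer passed, 27 came to pass and 20 changed sign. On day 1 the count of 2 members became 4 with library totals alone, 4 without the filter on low counts and 1 as DEGs, and ran from 1 to 4 with single hearts left out. With library totals alone, 6289 of all 15306 genes rose and 1061 fell on day 1, and 8237 and 1659 on day 7 against sham. On day 7 against sham the count of 3 became 1 as DEGs. *Nrg1* joined it by DESeq2 and without the filter, and *Hbegf* when only the groups compared were fitted. With library totals alone its members changed, as by limma with either pseudocount. *Hbegf*, *Egfr*, *Erbb2* and *Nrg1* then rose, while *Erbb3* and *Erbb4* did not pass. From day 1 to day 7 the count of 4 became 2 as DEGs and 2 by limma with a pseudocount of 1 or of 0.1. With library totals alone *Erbb3* left that count (FDR 0.126). The changes of sign lay in values that had not passed. With library totals alone, *Btc* was 0.019 on day 1 and 0.22 on day 7 against sham, *Erbb3* 0.065 on day 1, and *Erbb4* 0.057 between the days. By limma on log2(TPM + 1) these were 0.026, 0.18, 0.10 and 0.030, and *Erbb2* between the days was 0.11. By limma on log2(TPM + 0.1) they were 0.063, 0.36, 0.13, 0.060 and 0.13, and *Tgfa* between the days was 0.054. With single hearts left out, *Btc* between the days ran from -0.023 to 0.20 and *Erbb4* from -0.21 to 0.072. The cause was not tested.

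Hearts with the same replicate number are different mice. Correlations of their deviations ran from -0.244 to 0.229, and 4 of 12 pairs were over 0.1. Pairs with different numbers were not set beside these, so the values cannot show whether a number marks hearts handled together. With a replicate block, 3 members passed on day 1 (*Egfr* at 0.56, FDR 0.0290), 2 on day 7 against sham (*Erbb4* at -0.53, FDR 0.0624) and 4 between the days. Depth limits *Areg*, whose libraries held 5 counts or fewer, and it passed on day 1 without the filter (log2 FC 4.32, FDR 0.0415), a value that rests on the prior count since its sham libraries are at 0. The sum of all EGF family ligand genes other than *Ereg* was added after the data were seen and is given with the 5-gene sum.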
